A study of Mus musculus with 71 samples.

Results

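Pluripotent stem cells are held in their undifferentiated state by a small set of transcription factors that bind the regulatory regions of each other's genes and of many shared targets. OCT4 (encoded by Pou5f1), SOX2 and NANOG form the core of this network, and ESRRB, the Krüppel-like factors KLF2, KLF4 and KLF5, TFCP2L1, PRDM14 and SALL4 reinforce it in the naive state, which in mouse cells corresponds to the epiblast before implantation. Polycomb repressive complex 2 (PRC2) carries a catalytic subunit, EZH1 or EZH2, that methylates lysine 27 of histone H3, and its SUZ12 subunit is needed for the complex to assemble. In embryonic stem (ES) cells PRC2 is best known for occupying CpG-rich promoters of silent developmental genes. The genes described here are these 10 factors, taken by symbol from the 24222 genes of the RNA count files: Pou5f1, Sox2, Nanog, Esrrb, Klf2, Klf4, Klf5, Tfcp2l1, Prdm14 and Sall4.

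Expression was measured by polyA RNA sequencing in 9 libraries of C57BL/6 mouse ES cells, 3 in each of 3 groups. The rescue cells (EZH2 rescue in the labels) express wild-type EZH2 again, the dKO cells are the Ezh1/Ezh2 double knockout, and the WT cells are wild type for both genes. Cells of every group were kept on gelatin in 2i medium, which holds ES cells in the naive state by inhibiting the kinases MEK and GSK3. The labels do not say whether a group is 1 clone or whether its replicates come from independent cultures, so the p-values reflect the scatter of these libraries, which may be technical. The labels name no Ezh1 in the rescue, and its Ezh1 reads, given below, stayed near the dKO level. The remaining 62 samples of the series are chromatin immunoprecipitation (ChIP), of which 1 list of Suz12 peaks, from wild-type cells of another strain (129B6F1), was used.

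Total counts were 12457622 to 36009529 per library, and the smallest number of reads behind a factor in any group was 2662, for Prdm14 over the 3 WT libraries. Levels are given as CPM, the count of a gene relative to the library size after TMM, a scaling that sets the bulk of genes level between libraries. Since CPM does not account for transcript length, levels are compared between groups for 1 gene and not between genes. The targeted gene Ezh1 was 2.33 to 3.42 CPM in rescue libraries, 1.80 to 2.34 CPM in dKO libraries and 47.9 to 53.4 CPM in WT libraries, which follows the labels. Ezh2 was 549 to 576 CPM in rescue libraries, 191 to 214 CPM in dKO libraries and 308 to 314 CPM in WT libraries, and a gene count does not show which part of a gene is deleted. Replicate 3 of the dKO group stood apart from the other dKO libraries, with a chi-square of 22.5 to 22.6 per degree of freedom against them, while the other pairs within groups gave 2.15 to 11.4. Markers of other cell types moved with the groups. The summed level of 7 primitive endoderm markers was 9.86 to 11.6 CPM in rescue libraries, 53.6 to 73.8 CPM in dKO libraries and 8.19 to 9.93 CPM in WT libraries, and none of the 7 was at 0 in every library of a group. For 7 trophoblast markers the sum was 67.5 to 71.2 CPM in rescue, 72.4 to 115 CPM in dKO and 24.0 to 26.6 CPM in WT libraries, and for 6 neural markers 117 to 125 CPM in rescue, 118 to 136 CPM in dKO and 53.3 to 58.4 CPM in WT libraries. The neural sums were carried by different genes. Nes averaged 22.6 CPM in rescue, 102 CPM in dKO and 17.7 CPM in WT libraries. Tubb3 averaged 93.5 CPM in rescue, 19.9 CPM in dKO and 31.1 CPM in WT libraries. The same held for the trophoblast sums. Eomes averaged 46.0 CPM in rescue, 12.7 CPM in dKO and 14.9 CPM in WT libraries. Krt18 averaged 6.52 CPM in rescue, 33.9 CPM in dKO and 3.76 CPM in WT libraries. Of the 7 trophoblast markers, 5 were lower in rescue than in dKO cells, 1 was higher and 1 was not called (edgeR). The middle value of their log2 changes was -1.64. For 8 fibroblast markers the sum was 10.1 to 10.4 CPM in rescue, 43.2 to 49.6 CPM in dKO and 5.72 to 7.16 CPM in WT libraries, with Lum at 0 in all 9 libraries and Col3a1 at 0 in all dKO and WT libraries. Postn was at 0 in all rescue and WT libraries and Twist2 in all WT libraries. Only 4 of the 8 had enough reads to be tested, so the sums rest on part of the list. In dKO against WT cells 6 of 6 tested primitive endoderm markers and 4 of 4 fibroblast markers rose, 6 of 7 trophoblast markers rose and 1 fell, and of 4 tested neural markers 1 rose and 2 fell, where 33.7% of all genes rose and 31.0% fell. Their part in the results below was not tested, and in these bulk libraries fewer cells of a type and less RNA per cell cannot be told apart.

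All 10 factors were expressed in all 3 groups, and most of the changes were below 2-fold. Together they took 0.731% to 0.747% of all counts in rescue libraries, 0.589% to 0.611% in dKO libraries and 0.626% to 0.648% in WT libraries, so the summed level was highest in every rescue library and lowest in every dKO library. Tfcp2l1 gave the most reads to this sum, with a mean of 2312 CPM in rescue, 1633 CPM in dKO and 1582 CPM in WT libraries. Sox2 and Klf5 were highest in WT libraries. All 10 passed the filter on low counts and were tested. In dKO cells against WT cells, 2 factors rose, 7 fell and 1 did not pass an adjusted p of 0.05 (edgeR, Benjamini-Hochberg). Over all 14145 genes tested in that comparison, 64.7% were called, 33.7% as higher and 31.0% as lower. The median log2 fold change of the 10 factors was -0.29, beside 0.00 for all genes, and their median absolute log2 fold change was 0.35, beside 0.41 for all genes. In rescue cells against dKO cells, 7 factors rose, 1 fell and 2 did not pass, where 70.3% of all genes were called, 32.1% as higher and 38.2% as lower. The factors' median was 0.37 and that of all genes -0.04. In rescue cells against WT cells, 7 rose, 2 fell and 1 did not pass, where 54.1% of all genes were called, 26.8% as higher and 27.3% as lower, and the medians were 0.24 for the factors and 0.00 for all genes. The share of factors called in each comparison therefore has to be read against a background in which 54.1% to 70.3% of all genes were called. Klf5 in dKO against WT cells was the only factor past a 2-fold change in any of the 3 comparisons, while 23.8% of all genes were past it in that comparison, 25.1% in rescue against dKO and 14.6% in rescue against WT cells. The number higher in dKO than in WT cells was 1 without WT replicate 2, and the number lower in rescue than in dKO cells was 2 without dKO replicate 3. The counts of 7 moved as well. Nanog and Klf2 were no longer called lower in dKO than in WT cells with total counts as the scaling. Esrrb and Klf2 were no longer called higher in rescue than in WT cells without rescue replicate 3, or without WT replicate 1. The 3 comparisons share their libraries, so they are not independent of one another.

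**Figure D1:**
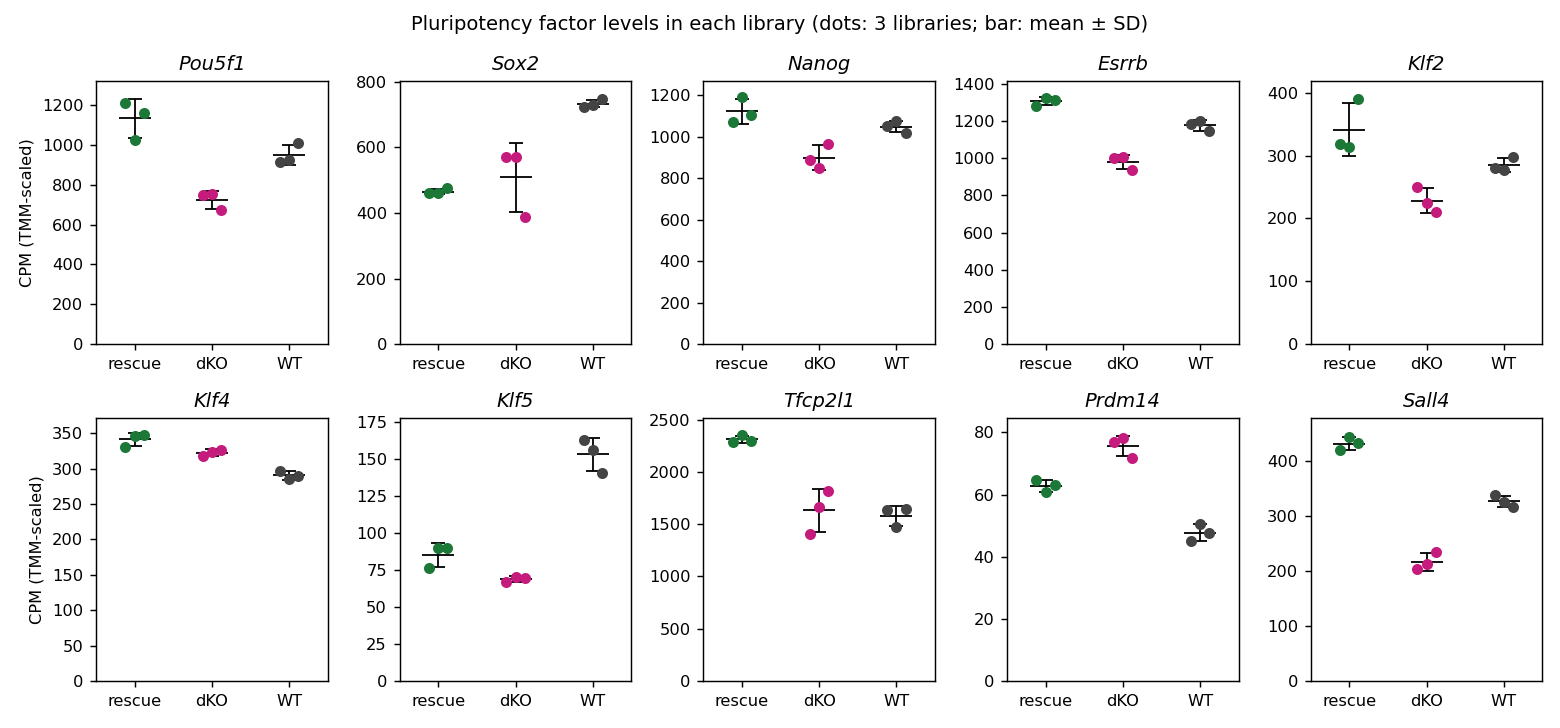
Level of each of the 10 factors in the 9 libraries, in CPM after TMM scaling on a linear axis from 0, with rescue, dKO and WT libraries from left to right. Each dot is 1 library and the bar is the mean with its SD (n = 3). The dKO dots of Pou5f1, Nanog, Esrrb, Klf2 and Sall4 lie below all rescue and WT dots, while for Klf5 the rescue dots (76.03 to 90.02 CPM) stay near the dKO dots and far below the WT dots (140.4 to 163 CPM).

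The libraries of the groups were separate for most factors. The 3 dKO libraries did not overlap the 3 WT libraries for 9 of the 10 factors, all but Tfcp2l1, where 68.0% of all genes were separate in this way. Rescue and dKO libraries were separate for 9 factors, all but Sox2, with 71.7% of all genes separate. For rescue and WT libraries the factors were again 9, all but Nanog, beside 65.3% of all genes. Within groups, the spread of the factors (coefficient of variation over 3 libraries) was 1.55% to 12.4% in rescue cells, 1.40% to 20.8% in dKO cells and 1.57% to 7.45% in WT cells. The 20.8% belonged to Sox2, whose dKO replicate 3 lay far below the other dKO libraries.

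Pou5f1, the gene of the POU-domain factor OCT4, lies on chromosome 17 (35506032 to 35510777; all positions are 1-based on mm10). It had 1211, 1024 and 1161 CPM in rescue libraries, 749.9, 751 and 673 CPM in dKO libraries, and 914, 923 and 1007 CPM in WT libraries. Every dKO library was below every WT library, and every rescue library was above them all. Pou5f1 fell by 0.39 ± 0.073 (log2, SE) in dKO against WT cells, to 0.764 times the WT level (edgeR, Benjamini-Hochberg adjusted p = 0.00055). In rescue against dKO cells it rose by 0.64 ± 0.073, or 1.56-fold (adjusted p = 8.05e-06). The rise of 0.26 ± 0.073 in rescue against WT cells passed with an adjusted p of 0.0106 (edgeR), and did not pass without rescue replicate 1, where it was 0.21 with an adjusted p of 0.0554. Reads of Pou5f1 and of Nanog can be shared with near-identical pseudogene copies, so part of their counts is uncertain.

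Sox2 encodes the HMG-box partner with which OCT4 binds DNA, and lies on chromosome 3 (34649995 to 34652461) inside the long noncoding gene Sox2ot. It stood at 459, 460.5 and 474 CPM in rescue libraries, 569, 570.2 and 386 CPM in dKO libraries, and 723, 729 and 746 CPM in WT libraries. The WT libraries were the highest, and dKO replicate 3 lay below all rescue libraries while dKO replicates 1 and 2 lay above them. Sox2 fell by 0.53 ± 0.12 in dKO against WT cells (edgeR, adjusted p = 0.00194) and by 0.66 ± 0.12 in rescue against WT cells (adjusted p = 0.00066). Without dKO replicate 3, the drop in dKO against WT cells was 0.37 (adjusted p = 2.59e-06). Rescue and dKO cells differed by -0.13 ± 0.12, which did not pass (adjusted p = 0.34), but without dKO replicate 3 the difference was -0.29 and passed (adjusted p = 1.97e-05), so that 1 library decides this call. How reads were assigned where Sox2 and Sox2ot overlap is not given, though Sox2ot itself was at 0.171 to 0.683 CPM in all 9 libraries. Of the core trio, Sox2 was the one that did not rise in rescue against dKO cells. In that comparison the tested genes of chromosome 3 had a median of -0.43, as described below.

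Nanog, on chromosome 6 (122707489 to 122714633), encodes the homeodomain factor that stabilises self-renewal, and its promoter holds one of the best known sites bound jointly by OCT4 and SOX2. The window from 250 bases before to 50 bases after a Nanog start, from RefSeq on GRCm38.p6 (the assembly behind mm10), is shown because it links core members of the set directly; capitals mark the joint OCT4 and SOX2 motif.
Nanog, chr6:122707239-122707538, plus strand: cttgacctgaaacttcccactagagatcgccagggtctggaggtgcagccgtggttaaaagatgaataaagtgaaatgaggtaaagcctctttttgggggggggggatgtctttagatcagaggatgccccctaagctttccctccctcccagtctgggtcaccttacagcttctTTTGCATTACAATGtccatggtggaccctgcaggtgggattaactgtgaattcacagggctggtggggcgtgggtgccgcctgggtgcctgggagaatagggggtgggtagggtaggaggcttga
The motif searched was the OCT4 part TTTGCAT followed after 1 base by the SOX2 part ACAATG, on both strands, and it was written from this known site, so finding it here is no result. It stood 75 to 62 bases before the start, and only the 2 overlapping Nanog windows of all 32851 RefSeq promoter windows held it (0.00609%). In expression, Nanog had 1071, 1190.1 and 1103 CPM in rescue libraries, 887, 847 and 963 CPM in dKO libraries, and 1052, 1074 and 1019 CPM in WT libraries. The dKO libraries were below all others, and rescue and WT libraries overlapped. Nanog fell by 0.22 ± 0.061 in dKO against WT cells (edgeR, adjusted p = 0.00723) and rose by 0.32 ± 0.061 in rescue against dKO cells (adjusted p = 0.000569). Between rescue and WT cells the difference was 0.10 ± 0.061, which did not pass (adjusted p = 0.203). The drop in dKO cells did not pass when libraries were scaled by their total counts alone (-0.09, adjusted p = 0.234). That scaling also moved the median of all genes in this comparison to 0.13, and relative to that median Nanog was at -0.22 under it.

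Esrrb, an orphan nuclear receptor gene on chromosome 12 (86361117 to 86521628), is a target of NANOG and is released when GSK3 is inhibited. Its libraries were at 1284, 1326 and 1312 CPM in rescue cells, 1002, 1005 and 937 CPM in dKO cells, and 1185, 1202 and 1146 CPM in WT cells, so that the groups were separate, with rescue highest and dKO lowest. Esrrb fell by 0.26 ± 0.050 in dKO against WT cells (edgeR, adjusted p = 0.000574) and rose by 0.41 ± 0.050 in rescue against dKO cells (adjusted p = 1.34e-05). Against WT cells, the rescue level was higher by 0.15 ± 0.050 (adjusted p = 0.0229). That last call is weak, since the adjusted p was 0.0552 without rescue replicate 2, 0.0642 without rescue replicate 3, 0.0619 without WT replicate 1 and 0.0771 without WT replicate 3, and 0.0616 with TMM computed without chromosomes 3 and 14. Part of Esrrb overlaps the noncoding gene Gm40483, from which its reads cannot be told apart without strand.

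Klf2 encodes a zinc-finger factor that OCT4 is known to activate and that is stabilised when MEK is inhibited (chromosome 8, 72319062 to 72321654). It measured 319, 314 and 389 CPM in rescue libraries, 249.8, 224 and 211 CPM in dKO libraries, and 279, 277 and 297 CPM in WT libraries. The groups did not overlap, with rescue highest and dKO lowest. Klf2 fell by 0.32 ± 0.088 in dKO against WT cells (edgeR, adjusted p = 0.00688) and rose by 0.58 ± 0.088 in rescue against dKO cells (adjusted p = 8.66e-05). The rise of 0.26 ± 0.087 in rescue against WT cells (adjusted p = 0.0243) did not pass without rescue replicate 3, the highest library, where it was 0.16 (adjusted p = 0.123), nor without WT replicate 1 (0.0749) or WT replicate 2 (0.0805). With total counts as the scaling, the drop in dKO cells was -0.18 and did not pass (adjusted p = 0.0964), while relative to the median of all genes under that scaling it was -0.32.

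Klf4, a target of LIF and STAT3 signalling (chromosome 4, 55527137 to 55532475), had 329.9, 346 and 348 CPM in rescue libraries, 318, 323 and 327 CPM in dKO libraries, and 297, 285 and 289.7 CPM in WT libraries. WT libraries were the lowest and the rescue libraries lay just above the dKO libraries. Klf4 rose by 0.15 ± 0.049 in dKO against WT cells (edgeR, adjusted p = 0.0167) and by 0.23 ± 0.049 in rescue against WT cells (adjusted p = 0.00185). Rescue and dKO cells differed by 0.08 ± 0.049, which did not pass (adjusted p = 0.165), and by -0.06 with total counts as the scaling. That scaling moved the all-gene median to -0.18, relative to which Klf4 was at 0.12, the same as with TMM. Without WT replicate 2 the rise in dKO cells was 0.13 and did not pass (adjusted p = 0.0757), and with no filter on low counts its adjusted p was 0.056.

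Klf5, a Krüppel-like factor of the inner cell mass and the trophectoderm (chromosome 14, 99298691 to 99313412), showed the greatest change of the 10 in dKO cells. It was at 76.03, 90.02 and 89.96 CPM in rescue libraries, 66.7, 70.4 and 69.4 CPM in dKO libraries, and 163, 156 and 140.4 CPM in WT libraries. The rescue libraries were all above the dKO libraries and all far below the WT libraries. Klf5 fell by 1.15 ± 0.080 in dKO against WT cells, to 0.450 times the WT level (edgeR, adjusted p = 1.56e-07). It rose by 0.31 ± 0.079 in rescue against dKO cells (adjusted p = 0.00411) and fell by 0.84 ± 0.078 in rescue against WT cells, to 0.557 times the WT level (adjusted p = 4.73e-06). The rise in rescue against dKO cells was 0.17 and did not pass with total counts as the scaling (adjusted p = 0.0655). That scaling moved the all-gene median to -0.18, relative to which Klf5 was at 0.35. The 3 Klf genes thus had different orders over the groups: rescue, WT, dKO from high to low for Klf2, WT, rescue, dKO for Klf5, and WT lowest for Klf4.

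**Figure D2:**
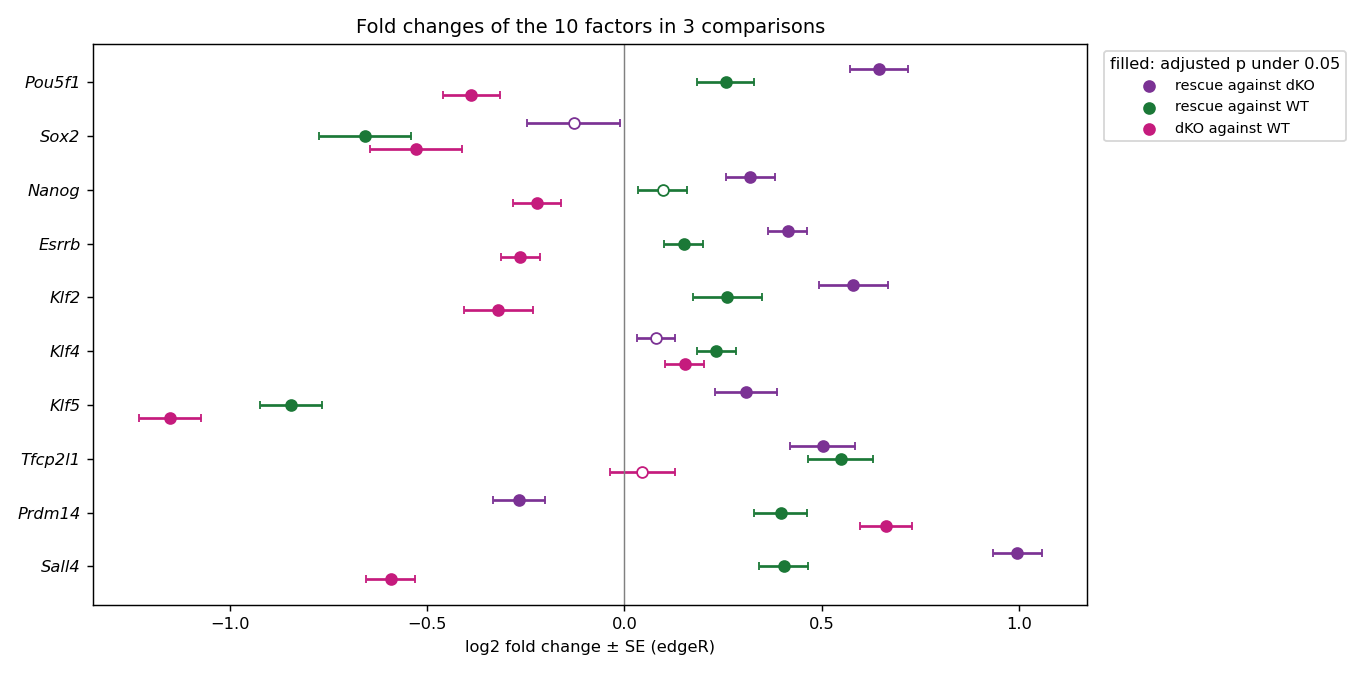
Log2 fold change of each factor with its SE in rescue against dKO, rescue against WT and dKO against WT cells, from edgeR, with filled points where the adjusted p is under 0.05. In dKO against WT cells the points run from -1.15 (Klf5) to 0.66 (Prdm14), and in rescue against dKO cells from -0.27 (Prdm14) to 1.00 (Sall4).

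Tfcp2l1, a grainyhead-family factor and target of LIF and STAT3 signalling (chromosome 1, 118627923 to 118685168), was at 2287, 2353 and 2297 CPM in rescue libraries, 1411, 1666 and 1821 CPM in dKO libraries, and 1633, 1471 and 1642 CPM in WT libraries. The rescue libraries were above all others, and the dKO libraries spread over and beyond the WT range. It rose by 0.50 ± 0.082 in rescue against dKO cells (edgeR, adjusted p = 0.000159) and by 0.55 ± 0.082 in rescue against WT cells (adjusted p = 0.00017). In dKO against WT cells its difference was 0.05 ± 0.082 (adjusted p = 0.646).

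Prdm14, whose protein restrains FGF signalling and DNA methylation in naive cells (chromosome 1, 13113428 to 13127163), went the other way from most of the set. It had 64.6, 60.7 and 63.2 CPM in rescue libraries, 76.9, 78.2 and 71.9 CPM in dKO libraries, and 44.96, 50.5 and 47.7 CPM in WT libraries. The groups were separate, with dKO highest and WT lowest. Prdm14 rose by 0.66 ± 0.067 in dKO against WT cells, or 1.58-fold (edgeR, adjusted p = 3.72e-06). It fell by 0.27 ± 0.066 in rescue against dKO cells (adjusted p = 0.00306) and stayed 0.40 ± 0.067 above the WT level in the rescue (adjusted p = 0.000399).

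Sall4, a zinc-finger factor that binds together with OCT4 and maintains Pou5f1 expression (chromosome 2, 168748332 to 168767201), had the greatest change of the 10 in rescue against dKO cells. Its levels were 419.6, 444 and 432 CPM in rescue libraries, 203, 212 and 234 CPM in dKO libraries, and 338, 326 and 317 CPM in WT libraries. The 3 groups were far apart, with rescue highest and dKO lowest. Sall4 fell by 0.59 ± 0.062 in dKO against WT cells, to 0.663 times the WT level (edgeR, adjusted p = 4.91e-06). In rescue against dKO cells it rose 1.99-fold (adjusted p = 5.59e-08), and in rescue against WT cells it rose by 0.40 ± 0.061, or 1.32-fold (adjusted p = 0.00019). Sall4 overlaps the noncoding gene Gm14261, and reads of the pair cannot be told apart.

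Chromosomes 3 and 14 shifted as a whole in the rescue cells, and Sox2 and Klf5 lie on them. The median log2 fold change over the tested genes of chromosome 3 was -0.43 in rescue against dKO cells, -0.40 in rescue against WT cells and -0.03 in dKO against WT cells. On chromosome 14 the medians were -0.78, -0.84 and -0.06. On every other chromosome the medians lay between -0.10 and 0.10 in the 3 comparisons. Sox2, at -0.66 in rescue against WT cells, stood beside a median of -0.44 over its 50 nearest tested genes (within 6.12 Mb), 16 of which were lower than Sox2. In dKO against WT cells its change was -0.53, beside -0.21 for the same 50 genes, of which 10 were lower. In rescue against dKO cells Sox2 was at -0.13, beside -0.40 for these 50 genes, of which 32 were lower. On the log2 scale relative to the WT mean, the 3 rescue libraries had Sox2 at -0.67, -0.67 and -0.63 and the chromosome median at -0.38, -0.36 and -0.40. In dKO replicates 1 and 2 Sox2 was at -0.36 and the chromosome 3 median at 0.12, and in dKO replicate 3 Sox2 was at -0.92 and that median at -0.32. Replicate 3 of the dKO group thus differed from the other dKO libraries over chromosome 3 as well as on Sox2.

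Klf5 was close to its neighbours in rescue against WT cells and below them in dKO against WT cells. In dKO against WT cells Klf5 was at -1.15 while its 50 nearest tested genes (within 21.9 Mb) had a median of -0.13, and none of the 50 was lower than Klf5. In rescue against WT cells Klf5 was at -0.84, beside -0.97 for the 50 nearest genes and -0.84 for the chromosome. In rescue against dKO cells Klf5 rose by 0.31 while the 50 nearest genes had a median of -0.96, and 48 of the 50 were below it. The 8 factors on other chromosomes had 50-gene medians between -0.17 and 0.21 in all 3 comparisons, against their own changes of -0.59 to 1.00. What part the chromosome-wide shifts play in the levels of Sox2 and Klf5 was not tested.

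**Figure D3:**
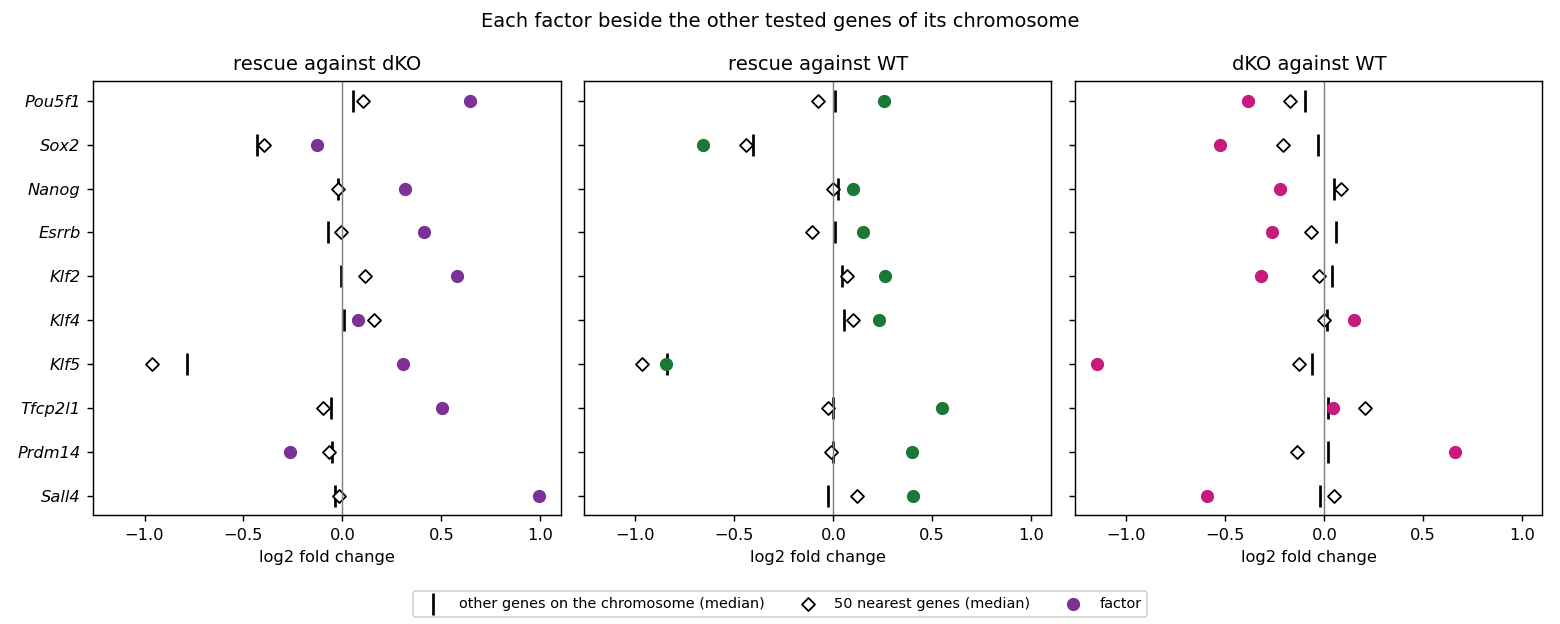
Log2 fold change of each factor (filled circle) beside the median of the other tested genes on its chromosome (bar) and of its 50 nearest tested genes (open diamond), in rescue against dKO, rescue against WT and dKO against WT cells. For Sox2 and Klf5 the bars and diamonds are shifted in both comparisons of the rescue (chromosome medians -0.43 and -0.79 against dKO), and in dKO against WT cells the chromosome medians are -0.03 and -0.06 and the medians of the nearest genes -0.21 and -0.13, while Klf5 is at -1.15.

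**Figure D4:**
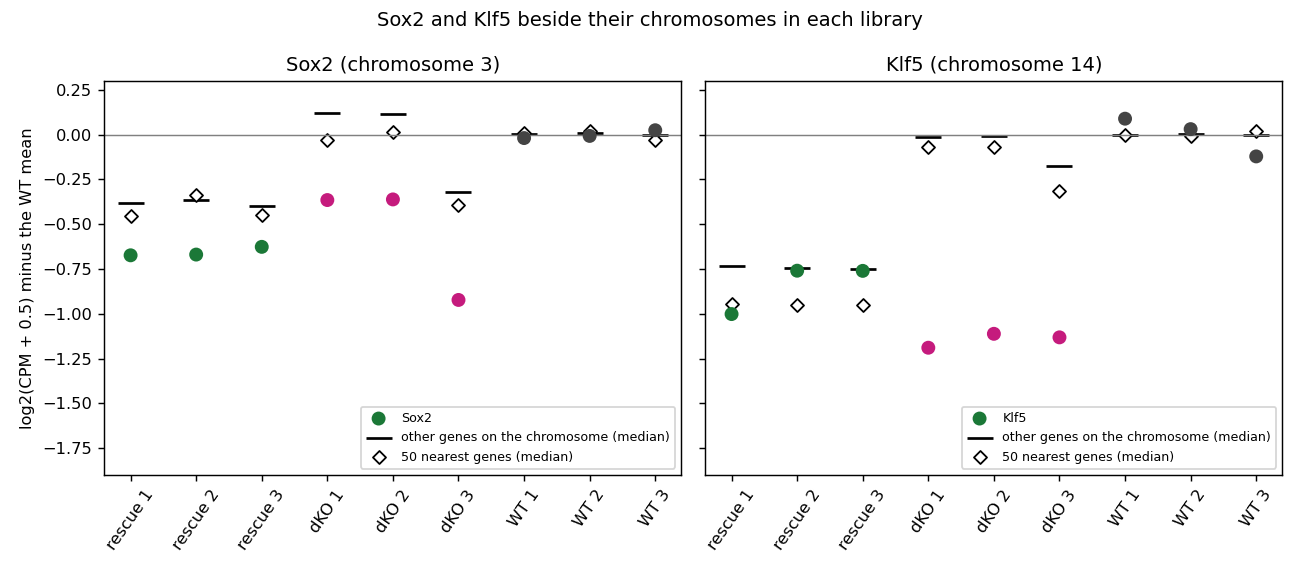
Sox2 (left) and Klf5 (right) in each library, as log2(CPM + 0.5) minus the WT mean, with the medians of the other tested genes on the chromosome (bar) and of the 50 nearest genes (diamond) in the same library. In dKO replicate 3 Sox2 is at -0.92 and the chromosome 3 median at -0.32, and in all 3 dKO libraries Klf5 lies between -1.19 and -1.11 while the chromosome 14 median lies between -0.17 and -0.01.

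None of the 10 factors had a Suz12 peak less than 1 kb from its start or end in wild-type cells of the other strain, where 26.2% of 14101 tested and placed genes had one. Within 10 kb, 2 of the 10 had a peak, Sox2 and Sall4, beside 37.1% of genes. Sox2 lay between peaks at chr3:34640567-34642781 (2215 bases, 7214 bases away) and chr3:34660962-34662210 (1249 bases, 8501 bases away). The peak nearest Sall4 was chr2:168741351-168741929, 6403 bases away. For Pou5f1 the nearest peak was 35.1 kb away, and for Nanog, Klf2, Klf4, Klf5, Tfcp2l1 and Prdm14 the distance was 105 to 208 kb. With the whole gene body counted, a window added after the data were seen, Esrrb was the 1 factor with a peak, beside 31.5% of genes. The list covers 1 set of peaks, and Suz12 binding in the C57BL/6 cells was not analysed here.

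RefSeq promoter windows were matched for 7 of the 10 factors, and 1 of the 7, Esrrb, overlapped a peak, beside 23.9% of 10619 tested genes with a window. Esrrb has starts at the front of the gene and inside it, and the peak at chr12:86421415-86423155 (1741 bases) covered 279 of the 300 bases of the inner window. Both are shown because they are the one case in the set where a Suz12 peak meets a start; capitals mark CpG dinucleotides.
Esrrb, outer start, chr12:86360867-86361166, plus strand: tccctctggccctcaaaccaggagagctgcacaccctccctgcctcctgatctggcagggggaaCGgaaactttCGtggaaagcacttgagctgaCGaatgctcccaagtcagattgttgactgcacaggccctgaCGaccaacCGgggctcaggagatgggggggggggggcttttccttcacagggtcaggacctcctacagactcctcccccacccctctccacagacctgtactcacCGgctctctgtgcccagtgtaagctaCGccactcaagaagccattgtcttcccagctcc
Esrrb, inner start, chr12:86421394-86421693, plus strand: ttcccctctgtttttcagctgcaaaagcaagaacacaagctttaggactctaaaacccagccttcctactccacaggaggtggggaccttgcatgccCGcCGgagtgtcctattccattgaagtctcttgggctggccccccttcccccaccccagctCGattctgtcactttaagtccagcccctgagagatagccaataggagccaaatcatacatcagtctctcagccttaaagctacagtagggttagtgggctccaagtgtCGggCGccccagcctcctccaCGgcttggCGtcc
Each window held 7 CpG, with a GC content of 60.0% in the outer and 55.3% in the inner one. Over all 32851 windows the median was 7 CpG and 52.7% GC, and over the 4361 windows that overlap a Suz12 peak it was 26 CpG and 67.0% GC. The Klf4 window was the richest in CpG among the factors, with 40 CpG and 74.3% GC, and overlapped no peak; it is shown, with CpG in capitals, as the contrast to the Esrrb windows.
Klf4, chr4:55532426-55532725, minus strand: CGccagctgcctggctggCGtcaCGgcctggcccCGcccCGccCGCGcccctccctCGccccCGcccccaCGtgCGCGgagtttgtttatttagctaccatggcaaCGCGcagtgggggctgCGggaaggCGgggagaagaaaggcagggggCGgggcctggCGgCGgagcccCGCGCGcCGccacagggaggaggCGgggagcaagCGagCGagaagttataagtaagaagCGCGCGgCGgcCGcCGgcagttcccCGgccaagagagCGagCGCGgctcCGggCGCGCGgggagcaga
The other factors' windows held 4 to 32 CpG, with 4 in each Nanog window and 32 in that of Klf2, and overlapped no peak.

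Most partner factors of the network fell in dKO against WT cells and rose in rescue against dKO cells. Of 16 listed partners, all tested, 13 fell and 1 rose in dKO against WT cells, where 31.0% of all genes fell and 33.7% rose, and their median log2 fold change was -0.35. Of these, 15 rose and 1 did not pass in rescue against dKO cells, with a median of 0.73, where 32.1% of all genes rose. In rescue against WT cells 8 rose and 1 fell, with a median of 0.22, where 26.8% of all genes rose and 27.3% fell. Nr0b1, which encodes the OCT4-binding receptor DAX1, fell to 0.516 times the WT level in dKO cells (edgeR, adjusted p = 6.65e-07), and Gbx2, a LIF and STAT3 target, rose 3.50-fold in rescue against dKO cells (adjusted p = 1.49e-07). Foxd3, a forkhead factor, was the partner that rose in dKO cells (1.94-fold, adjusted p = 0.000366), and in rescue against WT cells it rose 3.53-fold (adjusted p = 4.17e-06).

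Target genes of the network changed in both directions in dKO cells. Of 16, 7 rose and 8 fell in dKO against WT cells (median -0.18), beside 33.7% and 31.0% of all genes. In rescue against dKO cells 10 rose and 3 fell (median 0.46), beside 32.1% and 38.2% of all genes, and in rescue against WT cells 10 rose and 1 fell (median 0.33), beside 26.8% and 27.3%. Lefty2, an inhibitor of Nodal, had 146 to 151 CPM in rescue libraries, 364 to 455 CPM in dKO libraries and 37.2 to 48.96 CPM in WT libraries, 9.28-fold higher in dKO than in WT cells (edgeR, adjusted p = 5.68e-10). Pecam1, a surface protein of naive cells, fell to 0.623 times the WT level in dKO cells (adjusted p = 2.4e-07). Dppa3, a maternal factor that protects against DNA methylation, had 26.9 to 32.2 CPM in rescue libraries, 57.2 to 69.9 CPM in dKO libraries and 72.9 to 80.3 CPM in WT libraries, and was the 1 target lower in rescue than in WT cells (0.372 times, adjusted p = 4.62e-07). Fgf4, a classic target of OCT4 and SOX2, did not pass in any of the 3 comparisons, with 512 to 541 CPM in rescue libraries, 463 to 526 CPM in dKO libraries and 503 to 539 CPM in WT libraries.

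Of the genes of 3 signals that act on the factors, those of LIF and STAT3 signalling changed in both directions in dKO cells, and those of the other two that passed the test all fell. The counts below stand beside 33.7% of all genes higher and 31.0% lower in dKO against WT cells, 32.1% and 38.2% in rescue against dKO cells, and 26.8% and 27.3% in rescue against WT cells. Of 10 genes of LIF and STAT3 signalling, 3 rose and 2 fell in dKO against WT cells (median -0.01), where 64.7% of all genes were called; Jak2, the kinase, rose 2.07-fold (edgeR, adjusted p = 2.65e-06) and the receptor chain Il6st fell to 0.658 times (adjusted p = 8.02e-06). In rescue against dKO cells 5 of these rose and 3 fell (median 0.22), and in rescue against WT cells 4 rose and 2 fell (median 0.14). Of 14 tested genes of FGF and ERK signalling, the pathway that 2i inhibits, 7 fell and 7 did not pass in dKO against WT cells (median -0.25). In rescue against dKO cells 7 rose and 2 fell (median 0.14), and Etv5, an ERK-induced factor, rose 3.06-fold (adjusted p = 1.23e-08), and in rescue against WT cells 6 rose and 4 fell (median 0.02). Of 9 genes of GSK3 and Wnt signalling, 4 fell and 5 did not pass in dKO against WT cells (median -0.13), and 5 rose and 4 did not pass in each comparison of the rescue (medians 0.50 against dKO and 0.30 against WT). Sp5, a direct Wnt target, had 31.98 to 37.05 CPM in rescue libraries, 1.45 to 2.56 CPM in dKO libraries and 7.64 to 8.91 CPM in WT libraries, with a rise of 16.5-fold in rescue against dKO cells (adjusted p = 1.61e-09).

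Genes of the formative state, which follows the naive one, and paralogues of the factors changed in both directions. Of 10 tested formative genes, 5 rose and 4 fell in dKO against WT cells (median 0.36), beside 33.7% and 31.0% of all genes, 1 rose and 5 fell in rescue against dKO cells (median -0.34), beside 32.1% and 38.2%, and 4 rose and 5 fell in rescue against WT cells (median -0.24), beside 26.8% and 27.3%. Dnmt3l, a cofactor of the de novo DNA methyltransferases, had 193 to 225 CPM in rescue libraries, 266 to 285 CPM in dKO libraries and 15.8 to 18.4 CPM in WT libraries, 16.1-fold higher in dKO than in WT cells (edgeR, adjusted p = 2.47e-11). Zic2 fell to 0.478 times the WT level in dKO cells (adjusted p = 3.72e-07). Of the formative genes, Zic2, Otx2, Zic5 and Sall2 lie on chromosome 14, as Klf5 does. The median of that chromosome was -0.84 in rescue against WT, -0.78 in rescue against dKO and -0.06 in dKO against WT cells. What part this shift plays in the formative counts and medians was not tested. Of 29 tested paralogues, 10 rose and 9 fell in dKO against WT cells (median -0.02), close to the 33.7% and 31.0% of all genes that did. Of the same 29, 13 rose and 8 fell in rescue against dKO cells (median 0.36), and 13 rose and 7 fell in rescue against WT cells (median 0.19), beside the shares of all genes given for these comparisons. Sall3, a paralogue of Sall4, had 10.04 to 11.6 CPM in rescue libraries, 0.377 to 0.878 CPM in dKO libraries and 4.75 to 5.27 CPM in WT libraries, at 0.149 times the WT level in dKO cells (adjusted p = 3.28e-07). Prdm1, a paralogue of Prdm14, fell to 0.402 times the WT level in dKO cells (adjusted p = 1.29e-07) and Klf8 to 0.556 times (adjusted p = 2.27e-05). The lists were written with earlier results of these data known, so their counts are a description.

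**Figure D5:**
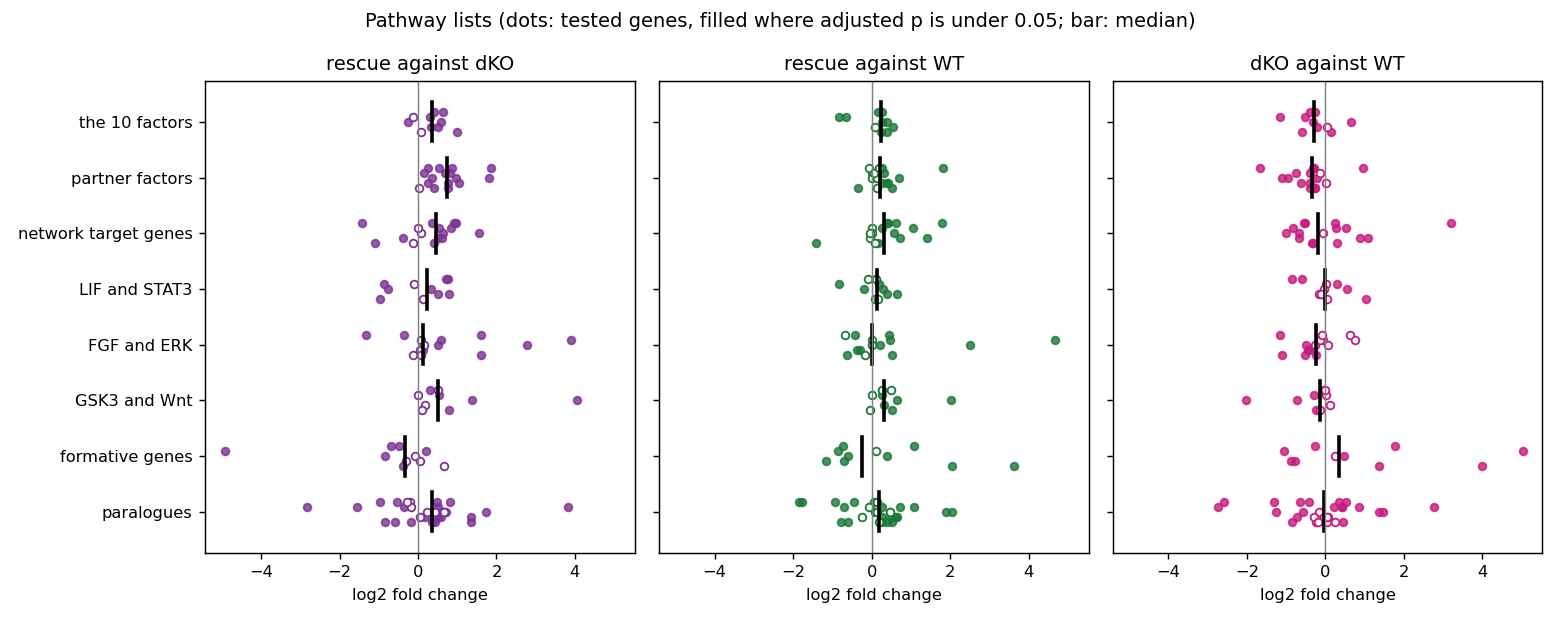
Log2 fold change of every tested gene of the 10 factors and 7 pathway lists in rescue against dKO, rescue against WT and dKO against WT cells, with filled dots where the edgeR adjusted p is under 0.05 and a bar at the median. The medians of the partner factors are 0.73, 0.22 and -0.35, and those of the 10 factors 0.37, 0.24 and -0.29.

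Each factor's profile over the 3 groups was set beside those of 73 tested genes of the partner, target, LIF, ERK, GSK3 and formative lists, by the root mean square difference of centred log2 CPM group means. With 3 points a profile is a coarse description. Nr5a2, a nuclear receptor gene, was nearest to Esrrb, at 0.00365, and Thap11 and Gdf3 were nearest to Nanog. Rif1 (0.0224) and then Tcf7l1 were nearest to Pou5f1, and the same pair, Tcf7l1 first, to Klf2. Zfp42, the gene of the naive marker REX1, and Nacc1 were nearest to Sall4, at 0.0153 and 0.0159. For Sox2 the nearest was Spry2 (0.0103) and for Klf5 it was Zic2 (0.0498), and Otx2 was second for both. Spry2, Zic2 and Otx2 lie on chromosome 14, which shifted as a whole in the rescue. The match of Sox2 and Spry2 is one of group means. In dKO replicates 1, 2 and 3 Spry2 had 56.9, 58.5 and 80.3 CPM, while Sox2 had 569, 570.2 and 386 CPM. Klf4 was nearest to Grb2 and Gsk3b, Tfcp2l1 to Lef1 and Map2k2, and Prdm14 to Dnmt3b and Tcl1. Lef1 lies on chromosome 3, which also shifted in the rescue, and had 4.67, 4.69 and 1.68 CPM in dKO replicates 1, 2 and 3. Of the 10 factors themselves, Pou5f1 and Klf2 were each other's nearest (0.0319), as were Nanog and Esrrb (0.0388) and, at a greater distance, Sox2 and Klf5 (0.249).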

How the data were processed

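The RNA files hold whole-number counts per gene as the authors made them, with no normalization. Per the submitters' processing notes, Trimmomatic, STAR 2.4.0 and HTSeq were used on mm10. How reads were assigned to genes, and with which annotation, is not given in the sources used here. The kit named in the labels' protocols (TruSeq v2) does not mark strand. The deposited Suz12 list has peak coordinates without a score, and neither its caller nor its threshold is given.

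Groups follow the labels. The 9 libraries were fitted together with edgeR 4.0.16 (TMM, filterByExpr by group, quasi-likelihood with robust spread, two-sided, Benjamini-Hochberg over 14145 genes, called under 0.05) in R 4.3.3, with contrasts for the 3 comparisons and 6 residual degrees of freedom. Entries that name no gene numbered 0. On simulated counts for dKO against WT (13125 genes), 10% of genes changed 1.25-fold, 66% at 1.5-fold, 80% at 2-fold and 92% at 4-fold were recovered, with 8 false calls. Only 50 genes were changed at each size, drawn over all levels of expression, while 64.7% of genes were called in the data. These shares therefore do not describe how readily a change in 1 of the 10 factors is found. Alternatives were DESeq2 1.42.0, limma voom 3.58.1, other scalings and filters, a replicate block and leaving out each library.

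Genes were placed with RefSeq symbols on GRCm38.p6, by symbol for 22858, by synonym for 1230 and not for 134. A peak counted as present with 1 base of overlap. The factors were those of the stated rule and named throughout. From each other list up to 3 genes with the smallest adjusted p per comparison and up to 1 that did not pass were open to naming, together with the 2 nearest profiles of each factor; some genes that this rule would name are not reported here. Members and lists were chosen with earlier results of these data known. Of the 71 samples, 61 ChIP samples were not used here, and 2 of these have titles and antibody labels that differ.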

Additional observations from a re-analysis of the deposited data

How the results depend on the processing

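Over 18 alternatives for each factor and comparison, 525 of 540 values kept their side of the threshold, 14 lost the call and 1 gained it, and the factors concerned are named with their results. Of the 525, 522 kept their sign and 3, not called in either case, changed it: Klf4 in rescue against dKO cells (-0.06 with total counts, 0.08 with TMM) and Tfcp2l1 in dKO against WT cells (-0.04 without dKO replicate 3 and -0.0088 without WT replicate 2, 0.05 with all libraries). Relative to the all-gene median of each scaling, Klf4 was at 0.12 with total counts and with TMM. The number of factors higher in dKO than in WT cells was 1 with no filter on low counts, and 1 to 2 when each library was left out. The number lower in rescue than in dKO cells was 1 to 2 when each library was left out, the 2 arising without dKO replicate 3. With total counts, Nanog and Klf2 left those lower in dKO than in WT cells, and Klf5 those higher in rescue than in dKO cells. Esrrb and Klf2 both left those higher in rescue than in WT cells without rescue replicate 3, and without WT replicate 1. The number of factors with a Suz12 peak was 2 within 10 kb, 1 with the gene body (added after the data were seen) and 1 in promoter windows alone. With the replicate block, the factors called were 2 higher and 7 lower in dKO against WT cells, 7 and 1 in rescue against dKO cells and 7 and 2 in rescue against WT cells, as without it. The labels do not say whether same-numbered libraries share more than their number. Correlations of their deviations from the group means were -0.11 to 0.20. Scaling by total counts alone moved the all-gene median to 0.13 in dKO against WT cells and to -0.18 in rescue against dKO cells, and the share of calls that were higher to 66.2% (52.1% with TMM) and 34.4% (45.6% with TMM). Among the other named genes, 4297 values kept their side of the threshold, 59 of them uncalled with the other sign, 113 lost the call and 51 gained it. Each factor had at least 2662 reads in a group, and the chi-square of 2.15 or more per degree of freedom between replicates shows a spread above counting error.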
